A study of Sus scrofa with 6 samples.

Results

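The polyubiquitin gene UBB, the ubiquitin C-terminal hydrolases UCHL1, UCHL3 and UCHL5, the deubiquitinase USP14 and the ubiquitin-activating enzymes UBA1 and UBA6 were followed in single pig oocytes. These 7 genes were taken by name from the 19300 genes in the deposited files, and all 7 were listed in each of the 6 oocytes. They were chosen by gene name with their FPKM in these same oocytes, and the contrast between the classes, already known, so their levels and differences are descriptions. The study compared 3 BCB-positive with 3 BCB-negative oocytes, with a single oocyte in each library. BCB stands for brilliant cresyl blue, which an enzyme active in growing oocytes turns colourless. An oocyte that stays blue, here BCB-positive, is usually regarded as fully grown, and one that loses the dye, here BCB-negative, as still growing. Both classes were at the germinal vesicle stage, came from antral follicles of 3 to 6 mm, were not matured in culture, and had their cumulus cells and zona pellucida taken off before they were lysed. The labels name no breed, age, genotype, animal or culture, so each class stood as 1 sample made of 3 cells and no test between classes was made.

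Ubiquitin is a small protein that cells attach to other proteins, often to mark them for the proteasome. It is made as fusions, either as head-to-tail repeats, encoded by polyubiquitin genes such as UBB, or joined to a ribosomal protein, and proteases must cut it free. An E1 enzyme activates ubiquitin, an E2 enzyme carries it and a ligase places it on a target. Deubiquitinases such as the UCH family and USP14 remove and recycle it. UCHL1 is known as an abundant protein of neurons and of oocytes.

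Expected counts summed to 7820374, 8192732 and 9238987 in BCB-positive oocytes 1, 2 and 3, and to 7620913, 7668881 and 7122749 in BCB-negative oocytes 1, 2 and 3. BCB-positive oocyte 3 stood apart from the rest. Its log2(FPKM + 1) values correlated with those of the other oocytes at a mean of 0.874 across genes, against 0.905 to 0.915 for the other libraries. Its FPKM summed to 668430, against 784781 to 811744 in the others, and it listed 16141 genes, against 14071 to 15297. The part of this shift in the differences below was not tested. All 12 oocyte markers were matched, and 11 reached 1 FPKM in at least 1 oocyte, NOBOX being the exception. Of 13 cumulus and granulosa markers, 9 were matched, and their summed level was 11.4 to 19.9 FPKM in BCB-positive and 11.2 to 17.8 FPKM in BCB-negative oocytes, most of it FST. Without FST the sums were 2.54 to 6.33 FPKM in BCB-positive and 0.43 to 1.83 FPKM in BCB-negative oocytes, so they were higher in all BCB-positive oocytes. CYP19A1 and CYP11A1, which define steroid-making follicle cells, were at most 0.18 and 0.06 FPKM. Other steroid genes of that list stood higher in BCB-positive oocytes, at low levels: HSD17B1 was at 2.25, 1.64 and 1.78 FPKM in BCB-positive and at 0.15, 1.31 and 0.16 FPKM in BCB-negative oocytes. STAR was at 1.56, 1.79 and 0.40 FPKM in BCB-positive and at 0.05, 0.37 and 0.16 FPKM in BCB-negative oocytes. The part of these markers in the differences below was not tested.

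By FPKM, UBB and UCHL1 were among the most abundant transcripts of the oocyte, while the E1 gene UBA6 was rare. Ordered by mean FPKM, a level scaled to length, the genes ran UBB at 8728, UCHL1 at 2321, UCHL3 at 625, UCHL5 at 139.6, USP14 at 48.1, UBA1 at 33.6 and UBA6 at 1.73 FPKM over 6 oocytes. Mean lengths in the same order were 872, 998, 693, 990, 2292, 3472 and 5511 bases. The part of length and of poly(dT) priming in this order, and in ratios between genes, was not tested. The ranges of UBB, UCHL1 and UCHL3 over the oocytes did not touch each other. UCHL3 also stayed above UCHL5, and UBA1 above UBA6, in 6 of 6 oocytes. The UCHL5 level rests on a division of reads with another gene, given below, so its place in the order is uncertain. UCHL5 and USP14 overlapped in range, with UCHL5 higher in 5 of 6 oocytes, and USP14 and UBA1 overlapped too, with USP14 higher in 4 of 6. The log2 difference within an oocyte averaged 1.44 ± 1.25 for UCHL5 over USP14 and 0.40 ± 0.64 for USP14 over UBA1 (SD, n = 6 oocytes), so the first only just passed its spread and the second stayed within it.

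**Figure D1:**
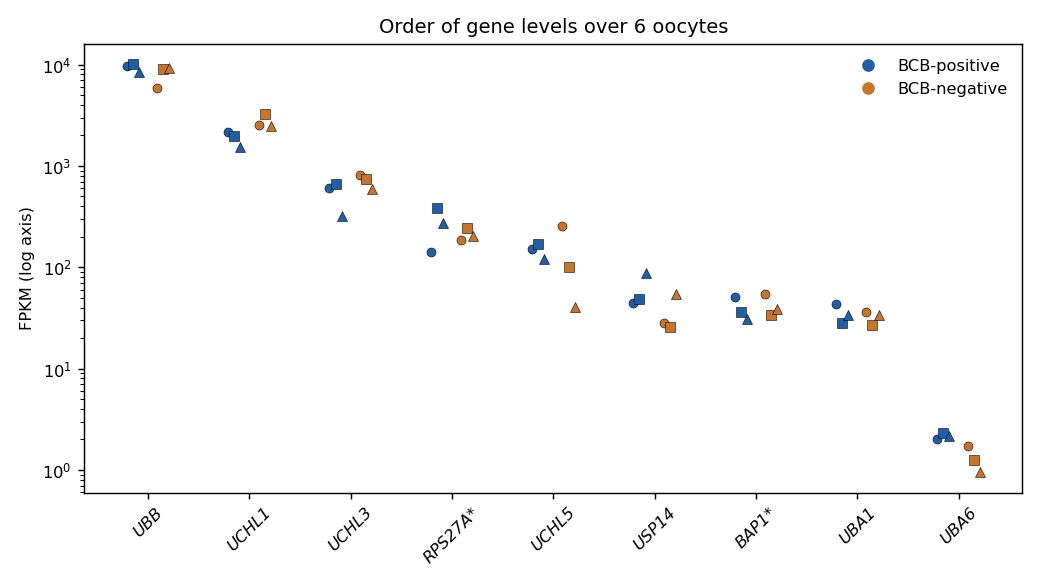
FPKM on a log axis for the 7 genes and, marked by an asterisk, RPS27A and BAP1, ordered by mean; each point is an oocyte, with BCB-positive oocytes on the left and BCB-negative oocytes on the right of each gene. UBB lies highest in each oocyte and UBA6 lowest, at 0.95 to 2.29 FPKM.

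Between the classes, UCHL1 lay lower in all BCB-positive oocytes and UBA6 lay higher, and the other 5 genes overlapped. All 7 passed the limit of a mean of 1 FPKM. With no overlap between classes, 1 of the 7 was higher, beside 7.44% of the 11495 genes compared, and 1 was lower, beside 4.03%. Neither reached 1.5-fold on the log2(FPKM + 1) scale. The count of genes with no overlap and at least 1.5-fold was therefore 0 higher, beside 5.75% of all genes, and 0 lower, beside 2.66%. These shares are background only, since the genes were picked with this contrast known. The median difference of the 7 genes, BCB-positive minus BCB-negative, was 0.25 on the log2 scale, beside 0.11 for all genes compared. For 3 of the 7 the SD between oocytes exceeded the size of the difference.

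**Figure D2:**
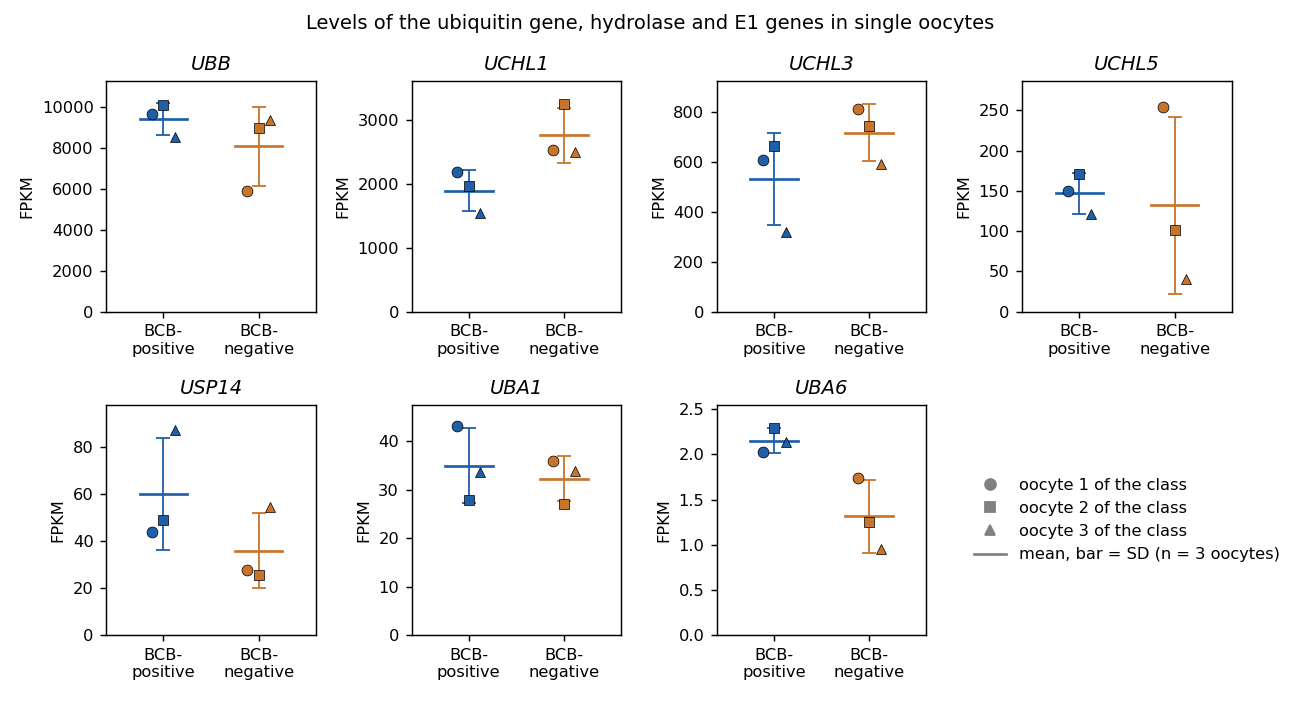
FPKM of each gene in BCB-positive (left) and BCB-negative (right) oocytes, on linear axes from 0; symbols mark oocytes 1, 2 and 3 of a class, lines the class mean and bars the SD over 3 oocytes. UCHL1 and UBA6 separate the classes and the others overlap.

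UBB encodes ubiquitin as a chain of repeats and is a main source of the free protein. In BCB-positive oocytes 1, 2 and 3 its level was 9628, 10052 and 8513 FPKM, against 5866, 8965 and 9344 FPKM in BCB-negative oocytes 1, 2 and 3. BCB-negative oocyte 1 was the lowest, while the other BCB-negative oocytes lay among the BCB-positive ones. In the order of all genes by FPKM, UBB held ranks 6, 5 and 3 in BCB-positive and ranks 9, 5 and 6 in BCB-negative oocytes. The class means were 9398 ± 795 FPKM in BCB-positive and 8058 ± 1908 FPKM in BCB-negative oocytes (SD, n = 3 oocytes each). The log2 difference was 0.25 (pooled SD between oocytes 0.28), and 0.03 without BCB-negative oocyte 1. Once FPKM had the same sum in each oocyte the classes no longer overlapped, at 0.34, and the same held without BCB-positive oocyte 3, at 0.32.

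UBB took up a share of each library that the counts fix closely. It was 0.784% of the counts in BCB-positive oocyte 1 (95% Wilson interval 0.778% to 0.790%), 0.805% (0.799% to 0.811%) in oocyte 2 and 0.701% (0.696% to 0.706%) in oocyte 3. In BCB-negative oocytes it was 0.463% (0.458% to 0.468%), 0.721% (0.716% to 0.727%) and 0.759% (0.753% to 0.765%). These intervals cover counting error only, because reads made by PCR without molecular identifiers are not independent molecules. The gap between BCB-negative oocyte 1 and the other libraries is far wider than the intervals.

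RPS27A, which encodes ubiquitin fused to a ribosomal protein of the small subunit, was at 139.9, 384 and 273 FPKM in BCB-positive and at 184, 245 and 203 FPKM in BCB-negative oocytes. The classes overlapped, and UBB lay far above RPS27A in FPKM in every oocyte.

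Genes that encode ubiquitin share near-identical units, so the division of reads among them is uncertain. For UBB the deposited gene counts were whole numbers in all 6 oocytes, whereas reads divided between genes usually leave fractions. UBB also overlaps a long noncoding RNA gene of the Sscrofa11.1 annotation, LOC102164714, which was listed at no more than 3.04 FPKM.

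The transcript files split UBB between the models NM_001105309.1 (894 bases) and XM_005653992.1 (860 bases), and here a single oocyte stood out. The share of UBB FPKM in NM_001105309.1 was 36.5%, 40.2% and 49.4% in BCB-positive oocytes 1, 2 and 3, and 3.29%, 40.0% and 42.8% in BCB-negative oocytes 1, 2 and 3. BCB-negative oocyte 1, which also had the lowest UBB level, was the exception, and the other 5 oocytes lay between 36.5% and 49.4%. In FPKM, XM_005653992.1 was at 6112, 6015 and 4308 in BCB-positive and at 5673, 5376 and 5344 in BCB-negative oocytes. NM_001105309.1 was at 3516, 4038 and 4204 FPKM in BCB-positive and at 193, 3589 and 3999 FPKM in BCB-negative oocytes. The low UBB total of BCB-negative oocyte 1 thus lay in NM_001105309.1, while its XM_005653992.1 level was within the range of the rest. The class means of the share differed by 13.3 percentage points, and by 0.60 without BCB-negative oocyte 1. A further model, XM_005653994.1, was listed in BCB-positive oocyte 3 alone, at 1.29 FPKM. These shares are estimates that divide reads common to the models, and no counting interval describes that division. UCHL1, UCHL3, UCHL5, USP14, UBA1 and UBA6 each had 1 listed transcript.

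**Figure D3:**
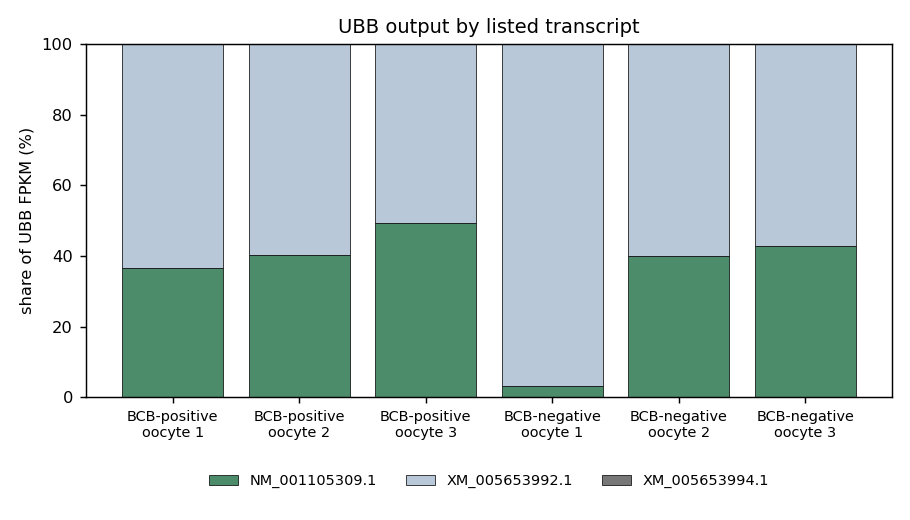
Share of UBB FPKM, in percent, assigned to each listed transcript in each oocyte, BCB-positive oocytes first. NM_001105309.1 holds 36.5% to 49.4% in 5 oocytes and 3.29% in BCB-negative oocyte 1; XM_005653994.1 is too small to see.

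UCHL1 was lower in BCB-positive oocytes. This small hydrolase frees ubiquitin from short tails and is also known to bind and stabilise ubiquitin itself. UCHL1 stood at 2178, 1955 and 1543 FPKM in BCB-positive oocytes, against 2516, 3249 and 2488 FPKM in BCB-negative oocytes. The highest BCB-positive oocyte lay below the lowest BCB-negative oocyte. The ranks of UCHL1 among all genes were 31, 37 and 43 in BCB-positive and 27, 19 and 28 in BCB-negative oocytes. Class means were 1892 ± 322 FPKM in BCB-positive and 2751 ± 431 FPKM in BCB-negative oocytes (SD, n = 3 oocytes each). The log2 difference was -0.54 (SD 0.24), a ratio of 0.686, which is short of 1.5-fold. Size factor scaling took it past that limit at -0.65, as did leaving out BCB-positive oocyte 1 at -0.65, or either of BCB-negative oocytes 1 and 3 at -0.60 and -0.61. Without BCB-positive oocyte 3, where UCHL1 was lowest, it was -0.40.

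UCHL1 held 0.205%, 0.181% and 0.146% of the counts in BCB-positive oocytes. In BCB-negative oocytes it held 0.233%, 0.302% and 0.233%. The Wilson intervals spanned 0.143% to 0.208% in BCB-positive and 0.229% to 0.306% in BCB-negative oocytes, with counting error only. No gene of the reference annotation overlaps UCHL1, and its counts were whole in all oocytes.

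UBB overlapped between classes, and its difference of 0.25 was below its SD of 0.28. The ratio of UBB to UCHL1 within an oocyte, which is free of depth, separated the classes. UCHL1 alone did so too, so the ratio partly restates UCHL1. UBB exceeded UCHL1 4.42-, 5.14- and 5.52-fold in BCB-positive oocytes and 2.33-, 2.76- and 3.76-fold in BCB-negative oocytes. The lowest ratio of a BCB-positive oocyte was above the highest of a BCB-negative oocyte. This ratio was chosen after its values were seen.

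**Figure D4:**
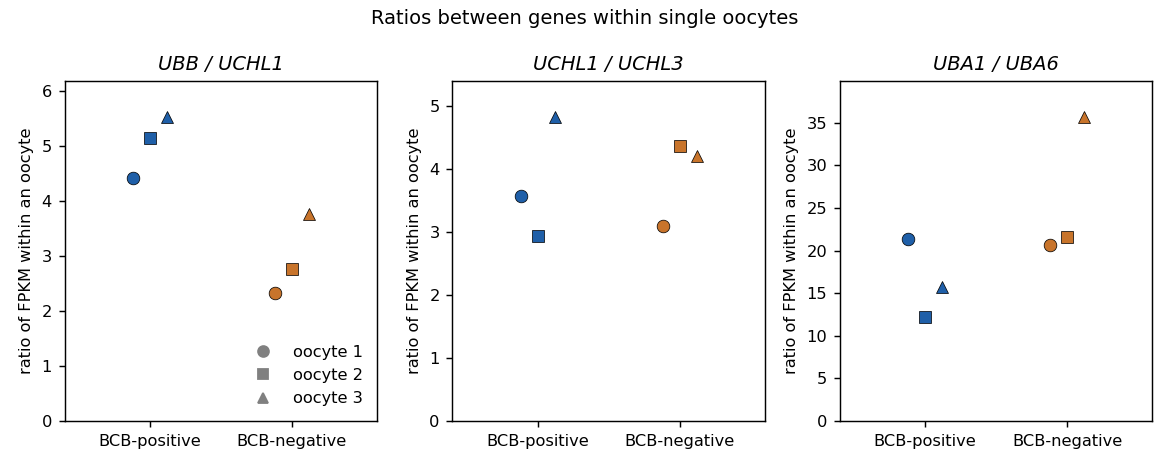
Ratio of FPKM between pairs of genes within each oocyte, BCB-positive left and BCB-negative right, on linear axes from 0. UBB over UCHL1 is 4.42 to 5.52 in BCB-positive and 2.33 to 3.76 in BCB-negative oocytes, while the other ratios overlap.

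UCHL3 is a close relative of UCHL1 that cleaves ubiquitin and also the ubiquitin-like protein NEDD8. It stood at 610.2, 666 and 321 FPKM in BCB-positive and at 815, 746 and 592 FPKM in BCB-negative oocytes. BCB-positive oocyte 3 was far below the others, and BCB-negative oocyte 3 fell within the BCB-positive range. The log2 difference was -0.49 (SD 0.44), and -0.16 without BCB-positive oocyte 3. On leaving out BCB-negative oocyte 3 the classes no longer overlapped, at -0.62. UCHL1 exceeded UCHL3 2.94- to 4.81-fold in BCB-positive and 3.09- to 4.35-fold in BCB-negative oocytes, so the balance between them overlapped. NEDD8 itself was at 34.6, 56.1 and 118 FPKM in BCB-positive and at 28.3, 40.7 and 46.8 FPKM in BCB-negative oocytes, with overlap.

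UCHL5 works at the proteasome, where it trims ubiquitin chains, and in a chromatin remodelling complex. It was the most variable of the genes, at 149.7, 171 and 121 FPKM in BCB-positive and at 253, 102 and 40.4 FPKM in BCB-negative oocytes. Both the highest and the lowest oocyte were BCB-negative, and the BCB-positive oocytes lay between them. The log2 difference of 0.52 was smaller than its SD of 0.94. Leaving out BCB-negative oocyte 1 gave 1.17 with no overlap, and leaving out oocyte 3 of that class gave -0.14.

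The UCHL5 counts were fractional in all 6 oocytes, so reads were divided with another gene. Gene 100511033, which has no name in the reference table, had fractions that completed those of UCHL5 to a whole number in 6 of 6 oocytes, within 0.02 of a count. No other gene did so in more than 4 oocytes. UCHL5 took 26.7%, 30.5% and 12.7% of their joint counts in BCB-positive and 37.0%, 24.2% and 9.15% in BCB-negative oocytes. The joint level was 523, 515 and 894 CPM (counts scaled to library total) in BCB-positive and 629.6, 388 and 409 CPM in BCB-negative oocytes. Its log2 difference was 0.42 with an SD of 0.42, against an SD of 0.94 for UCHL5 alone, and the classes overlapped. UCHL5 is therefore uncertain, and the part of the read division in its spread was not tested.

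USP14 sits on the proteasome beside UCHL5 and removes ubiquitin from its substrates. It stood at 43.9, 49.1 and 87.3 FPKM in BCB-positive and at 27.9, 25.7 and 54.5 FPKM in BCB-negative oocytes. BCB-negative oocyte 3 lay above BCB-positive oocytes 1 and 2, so the classes overlapped. The log2 difference was 0.74 (SD 0.55), the largest of the 7 genes, and 0.44 without BCB-positive oocyte 3. Leaving out BCB-negative oocyte 3 removed the overlap and gave 1.07. USP14 overlaps THOC1 in the reference annotation, and THOC1 was at most 0.76 FPKM in 5 oocytes and 6.89 FPKM in BCB-positive oocyte 3. The labels do not say that strand was kept, so reads from the overlap cannot be assigned. The USP14 count was fractional in BCB-negative oocyte 1, at 471.9, so its value there is uncertain.

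The classes overlapped for the related deubiquitinases BAP1, PSMD14 and USP5. BAP1, the remaining UCH enzyme, which acts on chromatin, was at 50.7, 36.5 and 31.0 FPKM in BCB-positive and at 54.0, 33.4 and 38.8 FPKM in BCB-negative oocytes. PSMD14, the deubiquitinase built into the proteasome lid, was at 104, 80.3 and 145 FPKM in BCB-positive and at 110.2, 85.2 and 60.5 FPKM in BCB-negative oocytes. USP5, which takes apart unanchored ubiquitin chains, was at 7.83, 11.9 and 17.8 FPKM in BCB-positive and at 19.7, 12.4 and 19.4 FPKM in BCB-negative oocytes. Of 13 genes in the list of partners and related hydrolases, 11 were matched and 10 compared, and 0 were higher and 0 lower by the rule of no overlap and 1.5-fold, beside 5.75% and 2.66% of all genes, so a list of this size would hold few such genes at the background share. Their median difference was 0.13, beside 0.11 for all genes.

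Summed over UCHL1, UCHL3, UCHL5 and BAP1, the UCH family stood at 2988, 2829 and 2015 FPKM in BCB-positive and at 3639, 4130 and 3159 FPKM in BCB-negative oocytes, with no overlap. UCHL1 supplied 69.1% to 76.6% of this sum in BCB-positive and 69.2% to 78.8% in BCB-negative oocytes, so the sum largely restates UCHL1.

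UBA1 is the main E1 of ubiquitin. It stood at 43.2, 27.9 and 33.7 FPKM in BCB-positive and at 36.0, 27.05 and 33.8 FPKM in BCB-negative oocytes. The ranges of the classes overlapped. The log2 difference of 0.10 was below its SD of 0.26, and its sign turned on leaving out BCB-positive oocyte 1, at -0.06, or BCB-negative oocyte 2, at -0.02. UBA1 was the least different of the 7 genes between classes.

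UBA6, the second E1 of ubiquitin, was rare and somewhat higher in BCB-positive oocytes. It rested on 86, 102 and 108 counts in BCB-positive and 72, 52 and 37 counts in BCB-negative oocytes. Its level was 2.02, 2.29 and 2.14 FPKM in BCB-positive and 1.74, 1.25 and 0.95 FPKM in BCB-negative oocytes. The lowest BCB-positive oocyte lay only just above BCB-negative oocyte 1. The log2(FPKM + 1) difference was 0.46 (SD 0.18). This scale understates low genes, and with a pseudocount of 0.1 FPKM the difference was 0.71, past 1.5-fold. On log2(CPM + 1) it was 0.67. UBA6 overlaps GNRHR in the reference annotation. GNRHR was at 0 FPKM in 4 oocytes, while BCB-negative oocytes 1 and 3 had 0.59 and 1.39 FPKM.

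UBA1 exceeded UBA6 21.4-, 12.2- and 15.8-fold in BCB-positive and 20.7-, 21.6- and 35.6-fold in BCB-negative oocytes. The ranges overlapped at BCB-positive oocyte 1. In human and mouse cells UBA6 passes ubiquitin to its own E2 enzymes UBE2Z and BIRC6. UBE2Z was at 1.61, 0.52 and 1.65 FPKM in BCB-positive and at 0.22, 0 and 0.56 FPKM in BCB-negative oocytes, a mean below 1 FPKM. Some UBE2Z counts were fractional, at 12.49 and 44.94 in BCB-positive oocytes 2 and 3 and 11.72 in BCB-negative oocyte 3. Reads divided with another gene leave such fractions, so its values are uncertain. BIRC6 was at 0.76, 0.49 and 1.88 FPKM in BCB-positive and at 1.01, 0.58 and 1.69 FPKM in BCB-negative oocytes. Both were at levels of FPKM like those of UBA6 or below, and both overlapped between classes.

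Among the other E1 genes, which activate ubiquitin-like proteins, 8 of 8 were matched and 6 compared. By the rule of no overlap and 1.5-fold, 1 was higher, beside 5.75% of all genes, and 0 were lower, beside 2.66%. The higher gene was NAE1, a subunit of the NEDD8 E1, at 4.41, 5.24 and 7.41 FPKM in BCB-positive and at 2.41, 2.58 and 0 FPKM in BCB-negative oocytes. It rested on 23 to 46 counts in BCB-positive and on 0 to 13 counts in BCB-negative oocytes. UBA3, the partner of NAE1, overlapped at 28.7, 29.7 and 57.6 FPKM in BCB-positive and 19.4, 39.9 and 32.2 FPKM in BCB-negative oocytes. SAE1, a subunit of the SUMO E1, had no overlap and was lower, at 309, 243 and 258 FPKM in BCB-positive and 324, 332 and 439 FPKM in BCB-negative oocytes, but by less than 1.5-fold at -0.43. The median difference of the list was 0.14, and -0.19 without BCB-positive oocyte 3.

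Of 30 genes of ubiquitin E2 enzymes, 27 were matched and 26 compared, and 3 were higher and 0 lower by the rule of no overlap and 1.5-fold, beside 5.75% and 2.66% of all genes. UBE2N, which builds ubiquitin chains used in signalling and DNA repair, was at 133, 167 and 231 FPKM in BCB-positive and at 91.3, 121 and 105 FPKM in BCB-negative oocytes. UBE2Q2 was at 35.5, 32.4 and 49.2 FPKM in BCB-positive and at 23.2, 19.5 and 18.6 FPKM in BCB-negative oocytes. UBE2J1, an E2 of the endoplasmic reticulum, was at 6.27, 5.11 and 16.6 FPKM in BCB-positive and at 2.49, 2.94 and 2.36 FPKM in BCB-negative oocytes. BCB-positive oocyte 3 was the highest for all 3. The log2 differences were 0.71 for UBE2N, 0.89 for UBE2Q2 and 1.36 for UBE2J1. Without that oocyte they were 0.50, 0.71 and 0.89, and UBE2N no longer met the rule. The counts of UBE2J1 were fractional, which marks reads divided with another gene, so its values are uncertain. The median difference of the E2 list was 0.32 (SD 0.35 between oocyte medians), beside 0.11 for all genes. Without BCB-positive oocyte 3 it was 0.10, beside 0.05 for all genes.

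**Figure D5:**
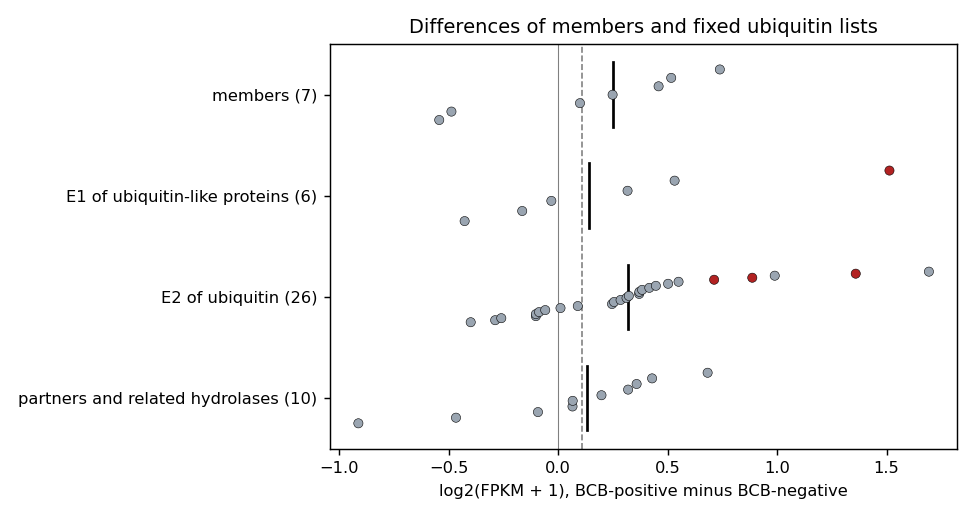
Difference of mean log2(FPKM + 1), BCB-positive minus BCB-negative, for the 7 genes (members) and the compared genes of 3 ubiquitin lists, with numbers of genes in brackets. Red points had no overlap and at least 1.5-fold, black bars are list medians and the dashed line is the median of all genes, 0.11; only 4 genes, in the E1 and E2 lists, are red.

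Other transcripts followed UCHL1 and UBB closely over the 6 oocytes. Likeness was the root mean square distance between centred log2(FPKM + 1) profiles, among 4358 other named genes whose mean was 10 FPKM or more. The nearest to UCHL1 was TIMM13, a chaperone of the mitochondrial intermembrane space, at a distance of 0.06. TFR2, a transferrin receptor, and GHITM, of the inner mitochondrial membrane, were at 0.10 each. TIMM13 was at 96.0, 92.5 and 66.2 FPKM in BCB-positive and at 112, 139 and 117 FPKM in BCB-negative oocytes, with the same lowest and highest oocytes as UCHL1. The nearest to UBB were the transcription factor CREB3 at 0.05, the dynein light chain DYNLT1 at 0.06 and FARSA, a subunit of phenylalanyl-tRNA synthetase, at 0.07. DYNLT1 was at 209.5, 211 and 173 FPKM in BCB-positive and at 123, 172 and 185 FPKM in BCB-negative oocytes, lowest in BCB-negative oocyte 1 like UBB. These distances rest on 6 oocytes and were not tested. The genes were picked for this likeness, so a shared lowest or highest oocyte adds nothing to it.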

How the data were processed

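Each lysed oocyte was reverse transcribed from a poly(dT) primer (24 nt) and its cDNA amplified by PCR, per the labels' protocols. BWA, Cufflinks, RSEM and the build Sscrofa10.2 are named in the submitters' processing notes; the sources used here give neither roles nor versions. The deposited expected counts are estimated and can be fractional, and FPKM values were scaled by the authors to length and depth, per the file headers. Genes absent from a file were set to 0.

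Symbols came from a table of Sscrofa11.1, used for names and overlaps only: 13936 of 19300 genes were found by gene ID and 133 more by a transcript accession. The 7 genes and all lists were chosen with earlier results of these data known. The 3 ubiquitin lists hold 51 genes, of which 46 were matched; ADRM1, USP13, UBE2D1, UBE2E1 and UBE2S were not. Some planned results are not reported here.

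Differences are BCB-positive minus BCB-negative means of log2(FPKM + 1), over the 11495 genes whose mean was 1 FPKM or more. A gene was counted where the classes did not overlap and the difference reached 1.5-fold. This rule was tested on simulated counts. Named beyond the 7 were fixed ubiquitin genes, up to 3 counted genes per list and direction, and the 3 nearest profiles of UCHL1 and UBB. SAE1, UBA3, NOBOX, FST, HSD17B1, STAR, CYP19A1, CYP11A1, TEK and CD3E were named after their values were seen. The other marker lists summed to 0 to 3.33 FPKM in BCB-positive and 0.92 to 3.66 FPKM in BCB-negative oocytes for theca and stroma, and for blood to 0 to 0.44 FPKM in BCB-positive and 0 FPKM in BCB-negative oocytes. Leukocyte markers summed to 3.28 to 6.54 FPKM in BCB-positive and 1.77 to 4.27 FPKM in BCB-negative oocytes, and endothelial markers to 8.77 to 23.0 FPKM in BCB-positive and 6.94 to 15.6 FPKM in BCB-negative oocytes. Of these lists, 6 of 9, 1 of 5, 4 of 6 and 3 of 5 genes were matched. Most of the endothelial sum was TEK. Without TEK that sum was 0.68 to 3.88 FPKM in BCB-positive and 0.04 to 2.30 FPKM in BCB-negative oocytes. CD3E, of the leukocyte list, was at 4.54, 4.60 and 2.37 FPKM in BCB-positive and at 0.90, 0.11 and 1.19 FPKM in BCB-negative oocytes. The analysis used Python 3.11.15, pandas 2.3.3 and SciPy 1.17.1.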

Additional observations from a re-analysis of the deposited data

How the results depend on the processing

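No paired analysis was possible because the labels tie the oocyte numbers to no shared animal, batch or day. The alternatives were a pseudocount of 0.1 FPKM, size factors, a common FPKM sum, CPM, the ratio of class means, other filters, a 2-fold limit and leaving out each oocyte. Joining UCHL5 with gene 100511033 was chosen after seeing the data. The differences of UCHL1, UCHL3, UBB, USP14 and UBA6 kept their sign under each of these that was run for them, and those of UCHL5 and UBA1 turned only on leaving out an oocyte. UBA6 moved beyond its SD, to 0.71 with the smaller pseudocount and 0.67 as CPM. In both settings 1 of the 7 genes was then at least 1.5-fold higher. With size factors 1, UCHL1, was at least 1.5-fold lower. Genes with no overlap and higher numbered 2 with a common sum and 0 with a mean of at least 5 FPKM, which drops UBA6. Leaving out an oocyte gave 1 to 2 genes with no overlap higher, 1 to 2 lower, 0 to 2 at least 1.5-fold higher and 0 to 2 lower. The shares of all genes rose as well, to 11.5% to 17.2%, 7.46% to 10.17%, 7.19% to 13.7% and 4.40% to 6.92%. UCHL5 and UBA6 passed as higher without BCB-negative oocyte 1, and USP14 without BCB-negative oocyte 3; UCHL3 passed as lower without BCB-negative oocyte 3. In the lists, the count of other E1 genes that were higher was 0 with a mean of at least 5 FPKM and 1 to 2 without an oocyte. The count of E2 genes that were higher was 1 at 2-fold and 3 to 7 without an oocyte, being 7 when BCB-positive oocyte 1 was left out (13.7% of all genes) and 5 when BCB-negative oocyte 3 was (8.82%), and 0 to 1 were lower. The partners list had a median of 0.22 with a common sum and 0.32 with a mean of at least 5 FPKM. Without an oocyte its median was 0.089 to 0.29, with 0 to 2 genes higher and 0 to 1 lower. The cause of these shifts was not tested. Scaling moved the median of all genes to 0.02 with size factors and 0.19 with a common sum. The 3 nearest profiles of UCHL1 and of UBB stayed among the 20 nearest on leaving out any oocyte. The remaining values were among those that picked them, so this is no separate check. Among genes named with values, UBA6, UBE2Z and NAE1 rested on at most 108, 44.9 and 46 counts in an oocyte. The markers HSD17B1, STAR and CD3E rested on at most 16, 39 and 44 counts, and each fell to 1 count in a BCB-negative oocyte.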
